A study of Mus musculus with 4 samples.

Results

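The gene group described here is a set of 10 immediate early genes. They comprise the Fos genes Fos, Fosb and Fosl2, the Jun genes Jun, Junb and Jund, and Egr1, Atf3, Ier2 and Nr4a1. The genes were listed by name, and the counts of each of the 10 were read from all 4 count files, which hold 50686 gene identifiers for the hip and 54838 for the knee. All 10 reached 10 counts over the pair in both joints, as did 19856 genes in the hip and 21131 in the knee.

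Poly-A RNA from mouse articular cartilage was sequenced as 4 libraries, 1 per condition, to ask how loss of Cbfβ, the partner subunit of the Runx transcription factors, alters gene expression in joint cartilage. All mice carried Cbfβf/f, a Cbfb allele that Cre recombinase can delete. In the hip pair the control library is labelled Cbfβf/f with no treatment, and the other is labelled tamoxifen (TMX) injected Cbfβf/f;Col2α1-CreERT. By these labels the 2 libraries differ in Cre and TMX as well as in the intended deletion. The study's methods, however, give TMX or corn oil to Cbfβf/f mice too, and its text calls the control wild-type. Whether the hip control was injected is thus not settled. In the knee pair both libraries carry Aggrecan-CreERT, with oil injected in the control and TMX in the other. Each Cre is driven by a cartilage matrix gene and acts once TMX is given. Per the study's legends the mice were males of 6 weeks for the hip, which its text gives as 2 months, and of 12 weeks for the knee, and TMX was given at 75 mg/kg for 5 days, from 2 weeks of age for the hip and, as its methods and legend differ, from 8 or 6 weeks for the knee. A group size of 5 mice per experiment is stated for the work in general, but how many mice each library holds is not given in the sources used here, and with 1 library per condition no spread between animals can be measured. The joints differ in age, Cre driver, control and the set of gene identifiers counted. The study's discussion also describes the hip samples as articular cartilage alone and the knee samples as cartilage with bone.

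Immediate early genes are transcribed within minutes of a stimulus such as growth factor, mechanical load or stress, without new protein synthesis, and most of their mRNAs are short-lived. Fos and Jun proteins pair through leucine zippers to form AP-1, which binds the promoters of matrix-degrading enzymes and cytokines in cartilage and other tissues. Tissue dissection and the time before lysis are also known to induce this class of genes.

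The libraries held 34264456 to 38473120 counts on genes. Markers of chondrocytes, 12 genes fixed as a list, made up 0.0190% of the counts in the hip control library and 0.00851% in the hip library labelled TMX-injected, against 0.551% and 0.232% in the knee. Markers of skeletal muscle made up 16.4% and 16.5% for the hip and 1.11% and 2.46% for the knee, where 12 of 12 lay above the control. Col2a1, the main cartilage collagen, was at 9.2 and 6.59 CPM in the hip and 2550 and 869 CPM in the knee, and Matn1, a cartilage matrix gene, had 3 or fewer counts in a hip library. Thus the hip libraries labelled as articular cartilage were low in cartilage markers and rich in muscle RNA, and in these bulk libraries fewer cells of a type and less RNA per cell cannot be told apart. Erythroid markers made up 0.588% and 0.222% for the hip and 9.97% and 4.92% for the knee, with 7 of 7 measured markers below the control in the hip and 6 of 7 in the knee. Adipocyte markers, like Fos, Jun, Egr1 and Atf3, were higher in both pairs, for 5 of 7 in the hip (median log2 ratio 0.75) and 7 of 7 in the knee (0.94), and endothelial markers were higher for 5 of 6 in the knee. Cbfb itself had a log2 ratio of 0.41 in the hip (95% counting interval 0.33 to 0.48), which became -0.28 (-0.35 to -0.20) when corrected for the length and GC trend described below, and -0.07 in the knee (-0.13 to -0.01). The knee direction depends on the scaling, as its level before TMM was 111 CPM in the control and 120 CPM in the other library, and the corrected interval was -0.06 to 0.06. A count over the whole gene cannot tell whether Cre removed an exon. For this reason each library is named by its label. The part of cell makeup in the results on the immediate early genes was not tested.

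Levels are given in CPM, the counts of a gene scaled to the total on genes in that library. A log2 ratio is the library labelled TMX-injected over its control after TMM scaling within the pair, with 0.5 added to each count. The 95% Clopper-Pearson interval covers counting error only, so that an interval that excludes 0 compares 2 libraries and not the conditions. A gene was called higher or lower where its log2 ratio was at least 1 in size, that is 2-fold, and this interval excluded 0. Part of the hip ratios followed transcript length and GC content. Over all hip genes the median log2 ratio was 1.10 among transcripts of the lowest GC content and -0.57 among those of the highest, against -0.06 and 0.00 in the knee. The transcripts of all 10 genes lie above the hip median GC content of 50.1%, from 51.9% in Fos to 67.2% in Jund. A trend-corrected log2 ratio, from which this trend was subtracted, is therefore given beside the main value for several genes, and for all 10 in the plot of log2 ratios.

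In the hip pair 3 of the 10 genes, Fos, Fosb and Egr1, were called higher, beside 20.2% of all genes, and 0 were called lower, beside 16.3%. The counting interval lay above 0 for 8 genes, beside 37.3% of all genes, and below 0 for Jund alone, beside 33.7%. Trend-corrected, all 10 hip intervals lay above 0, beside 34.5% of all genes so corrected. In the knee pair 0 genes were called higher, beside 9.00% of all genes, and Jund was called lower, beside 6.81%. The knee interval lay above 0 for 4 genes, Fos, Jun, Egr1 and Atf3, beside 31.9% of all genes, and below 0 for 5, Fosb, Fosl2, Junb, Jund and Ier2, beside 29.7%. By library size the knee interval lay below 0 for Jund alone and above 0 for 5 genes, beside 20.1% and 43.0% of all genes by that scaling. The median log2 ratio of the 10 genes was 0.67 in the hip, against 0.01 over all genes, and -0.05 in the knee, against 0.02. Among all knee calls 56.9% were higher, and 71.3% when scaled by library size, a scaling that moves the knee median of all genes to 0.20 and that of the 10 genes to 0.13.

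**Figure D1:**
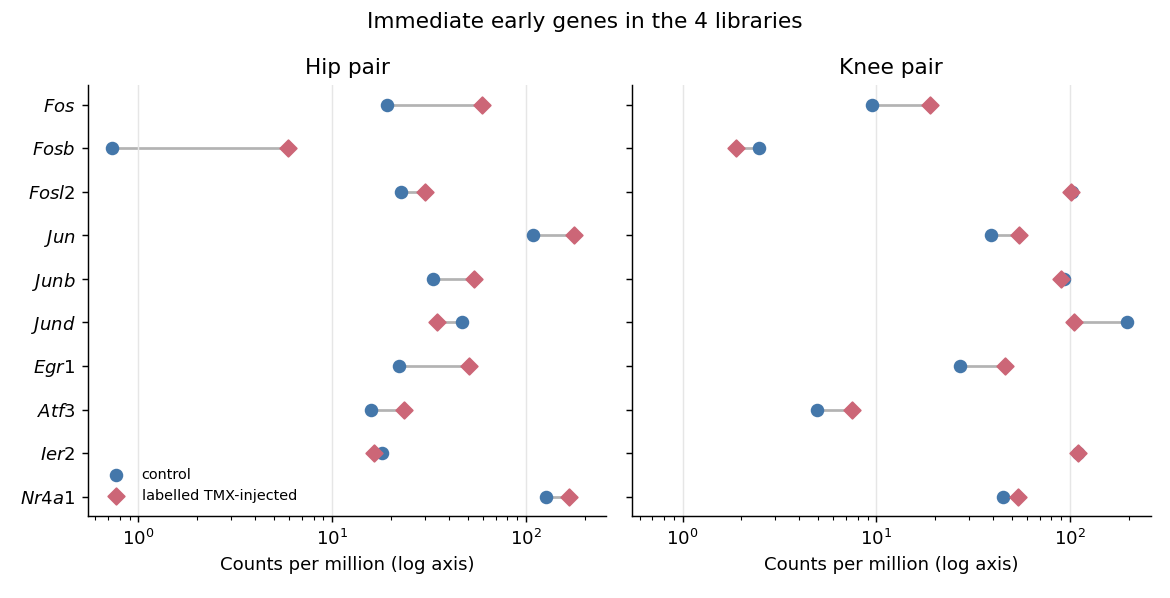
Level of each of the 10 genes in each library, in CPM on a log axis, with the hip pair on the left and the knee pair on the right; circles are control libraries, diamonds are those labelled TMX-injected, and a grey line joins each pair. Fosb moved farthest, from 0.728 to 5.93 CPM in the hip, while Ier2 stood at 109 CPM in both knee libraries.

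Fos encodes the inducible AP-1 partner that pairs with Jun proteins and cannot form dimers with itself. The gene (ENSMUSG00000021250) lies on chromosome 12 from 85520658 to 85524047 in GRCm39, with 4 exons. It had 740 counts (19.2 CPM) in the hip control library and 2046 (59.2 CPM) in the one labelled TMX-injected, and 327 (9.54 CPM) and 718 (18.8 CPM) in the knee. Fos was therefore higher in the library labelled TMX-injected of both joints. In the hip the log2 ratio was 1.66 (95% counting interval 1.54 to 1.79), a 3.17-fold difference that was called. In the knee it was 0.79 (0.60 to 0.99), a 1.73-fold difference below the 2-fold call.

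Fosb encodes a second inducible Fos protein, known for slow accumulation of its short form under repeated stimulation in neurons. The gene (ENSMUSG00000003545) lies on chromosome 7 from 19036621 to 19043976, with 4 exons. Its counts were 28 (0.728 CPM) in the hip control and 205 (5.93 CPM) in the hip library labelled TMX-injected, while the knee libraries held 85 (2.48 CPM) and 72 (1.88 CPM). The gene thus had the lowest level of the 10 in every library, and its direction differed between the joints. The hip log2 ratio was 3.05 (2.50 to 3.69), the highest of the group, and the knee log2 ratio was -0.58 (-1.05 to -0.11). With the knee scaled by library size its log2 ratio was -0.40, with an interval of -0.87 to 0.07.

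Fosl2 encodes Fra-2, a Fos protein that lacks a strong activation domain and has roles in cartilage and bone. The gene (ENSMUSG00000029135) lies on chromosome 5 from 32292707 to 32315186. It had 864 (22.5 CPM) and 1042 (30.1 CPM) counts in the hip control and the hip library labelled TMX-injected, and 3486 (102 CPM) and 3865 (101 CPM) in the knee. Log2 ratios were 0.47 (0.34 to 0.60) in the hip and -0.19 (-0.26 to -0.12) in the knee, where scaling by library size gave -0.01 (-0.08 to 0.06).

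Fos and Fosb are known to be induced through upstream elements, and their promoters are shown because their ratios were the highest of the Fos genes in the hip and differed in sign in the knee. The 250 bases before the start are from RefSeq on GRCm38.p6, from chr12:85473640-85473889 on the plus strand for Fos and chr7:19310046-19310295 on the minus strand for Fosb. Each RefSeq start lies 6 bases from that of the canonical GENCODE transcript. Capitals mark TGACG, the core of the cyclic AMP response element that CREB and ATF proteins bind, and the Egr element (GCGTGGGCG or GCGGGGGCG).
Fos: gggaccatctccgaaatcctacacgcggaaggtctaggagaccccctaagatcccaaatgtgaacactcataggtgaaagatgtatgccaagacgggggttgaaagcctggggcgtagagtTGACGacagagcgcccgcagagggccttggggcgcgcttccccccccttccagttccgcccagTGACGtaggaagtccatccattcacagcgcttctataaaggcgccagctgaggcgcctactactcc
Fosb: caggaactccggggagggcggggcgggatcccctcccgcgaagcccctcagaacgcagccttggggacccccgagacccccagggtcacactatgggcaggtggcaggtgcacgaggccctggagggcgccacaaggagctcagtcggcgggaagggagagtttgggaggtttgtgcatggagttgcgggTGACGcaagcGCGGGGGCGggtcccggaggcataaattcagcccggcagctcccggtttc
Fos holds TGACG at 129 and 66 bases before the start, and Fosb holds it at 60 bases, beside an Egr element at 50 bases.

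Within a library, ratios between genes need no scaling between libraries. These pairs were chosen after their values were seen. Fosl2 was the main Fos gene by counts in the knee, with 89.4% of the Fos family counts in the control and 83.0% in the library labelled TMX-injected, while Fos held 8.39% and 15.4%. In the hip Fos held 45.3% and 62.1% and Fosl2 52.9% and 31.6%. The ratio of Fos to Fosl2 counts was thus 2.29 times higher in the hip library labelled TMX-injected than in its control (95% counting interval 2.02 to 2.60) and 1.98 times higher in the knee (1.72 to 2.28). The ratio of Fosb to Fos went in opposite directions, being 2.65 times the control value in the hip (1.76 to 4.12) and 0.386 times in the knee (0.270 to 0.550). Summed over the 3 genes, Fos family levels were 42.4 and 95.2 CPM for the hip and 114 and 122 CPM for the knee.

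**Figure D2:**
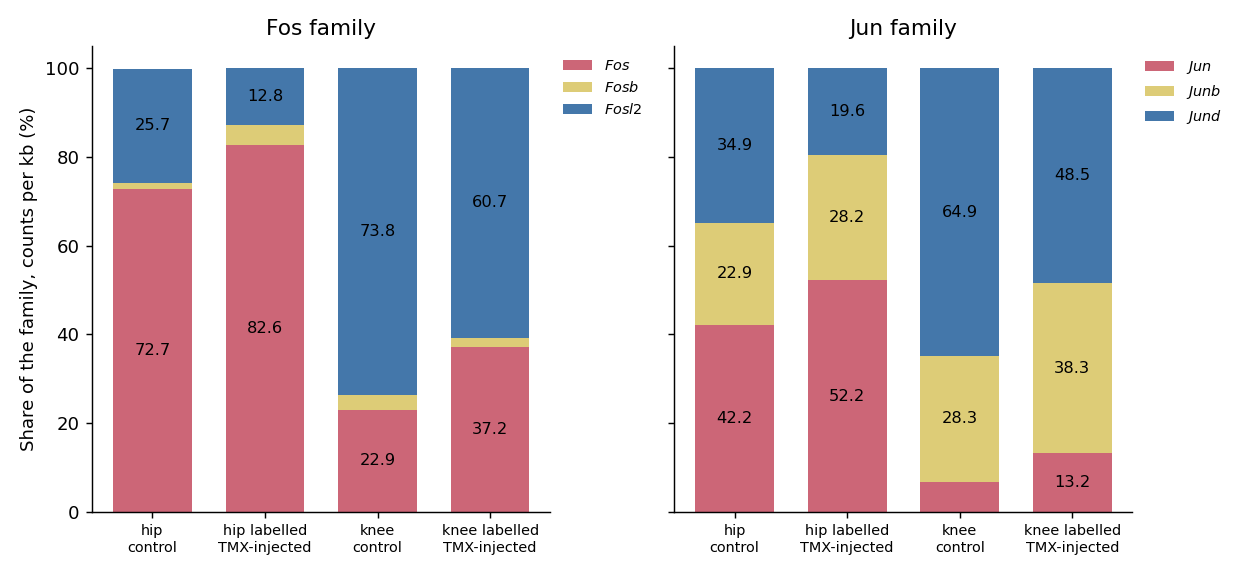
Share of each gene in the counts per kb of its family, in percent, for the Fos genes on the left and the Jun genes on the right, with 1 bar per library. Fos and Jun take a larger share, and Fosl2 and Jund a smaller one, in the library labelled TMX-injected of both joints.

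Jun encodes the Jun protein with the strongest transactivation of the family and a target of the JNK kinases. The gene (ENSMUSG00000052684) is a single exon on chromosome 4 from 94937271 to 94940459. It had 4160 counts (108 CPM) in the hip control, 6088 (176 CPM) in the hip library labelled TMX-injected, 1339 (39.1 CPM) in the knee control and 2078 (54.4 CPM) in the knee library labelled TMX-injected. Jun was higher in both joints, by 0.75 (0.69 to 0.80) on the log2 scale in the hip and by 0.29 (0.19 to 0.39) in the knee, both below 2-fold. Trend-corrected, the hip value was 1.04 (0.98 to 1.09), past the 2-fold call. Junos, an antisense transcript that overlaps 16.6% of the Jun exon, held 282 and 105 counts in the hip pair and 32 and 141 in the knee pair. Whether the counting used strand is not given in the sources used here, so reads of such overlapping genes may not have been told apart. Fosl2 and Nr4a1 share 4.1% and 6.0% of their exon bases with antisense transcripts in the same way.

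Junb encodes a Jun protein with weaker activation, which can restrain Jun on some promoters. The gene (ENSMUSG00000052837) is on chromosome 8 from 85701113 to 85705359 and shares 7.3% of its exon bases with Prdx2 on the opposite strand. Its counts were 1277 (33.2 CPM) and 1863 (53.9 CPM) in the hip control and the hip library labelled TMX-injected, and 3171 (92.5 CPM) and 3420 (89.5 CPM) in the knee. The hip log2 ratio was 0.74 (0.64 to 0.85), and 1.42 (1.32 to 1.53) when trend-corrected, which passes the 2-fold call. The knee log2 ratio was -0.23 (-0.30 to -0.16), and by library size -0.05 (-0.12 to 0.02). Prdx2, an erythrocyte peroxiredoxin of high level, held 11938 and 4803 counts in the hip pair and 47422 and 31405 in the knee pair, so it was lower in both pairs.

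Jund encodes the Jun protein expressed at a steady level in most resting cells, with little induction by stimuli. The gene (ENSMUSG00000071076) is a single exon on chromosome 8 from 71151599 to 71153265. It had 1798 counts (46.7 CPM) in the hip control and 1198 (34.6 CPM) in the hip library labelled TMX-injected, and 6704 (196 CPM) and 3996 (105 CPM) in the knee. Jund was lower than the control in both joints as scaled by TMM, although the trend-corrected hip value had the other sign. In the knee the log2 ratio was -1.09 (-1.14 to -1.03), a 2.12-fold difference, and -1.02 (-1.08 to -0.97) when trend-corrected, both called lower. By library size it was -0.90 (-0.96 to -0.85), short of the call. For the hip it was -0.39 (-0.49 to -0.28), and 0.29 (0.19 to 0.40) when trend-corrected. An annotated antisense transcript over 52.6% of its exon, Gm11175, had 0 counts in all 4 libraries.

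The Jun and Junb promoters are shown because the ratio of Junb differed in sign between the joints while that of Jun did not. They are the 250 bases before the RefSeq start on GRCm38.p6, both on the minus strand, from chr4:95052223-95052472 for Jun and chr8:84978749-84978998 for Junb. The RefSeq start is that of the canonical GENCODE transcript for Jun and lies 30 bases from it for Junb, while for Jund it lies 1210 bases and for Fosl2 1109 bases away, so those are not shown. Capitals mark TGACG as above.
Jun: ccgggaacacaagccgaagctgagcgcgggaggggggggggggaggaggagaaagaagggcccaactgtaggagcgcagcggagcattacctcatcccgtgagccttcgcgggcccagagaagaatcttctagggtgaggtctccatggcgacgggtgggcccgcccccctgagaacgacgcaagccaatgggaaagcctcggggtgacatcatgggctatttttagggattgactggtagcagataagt
Junb: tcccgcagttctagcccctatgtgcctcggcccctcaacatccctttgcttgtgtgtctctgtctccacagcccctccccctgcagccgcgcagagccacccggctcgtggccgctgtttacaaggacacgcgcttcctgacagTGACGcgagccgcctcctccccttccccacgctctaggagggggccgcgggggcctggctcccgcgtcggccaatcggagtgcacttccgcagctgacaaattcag
Junb holds TGACG at 106 bases before the start, and Jun holds none of the motifs searched on both strands in 300 bases (250 before the start and 50 after). RefSeq promoters were matched for 8 of the 10 genes, without Egr1 and Ier2. TGACG was in 5 of these 8, namely Fos, Fosb, Junb, Atf3 and Nr4a1, against 20.8% of all 32851 promoters, and Nr4a1 held 4 copies. The windows of Atf3 and Nr4a1 start 7 and 67 bases from their canonical transcripts, and those of Jund and Fosl2 count among the 8 despite their distance. The Egr element was in 3, Fosb, Fosl2 and Nr4a1, against 3.47% of all promoters. This element is almost wholly G and C, and the windows of these 3 genes hold 64.7% to 72.3% GC. The share over all promoters was not matched for GC content. The full cyclic AMP response element TGACGTCA, which contains TGACG, was in 0 of 8 against 1.79%, the AP-1 element (TGACTCA or TGAGTCA) in 0 against 5.2%, and the CArG box that serum response factor binds in 0 against 1.63%. These are matches of letters within these windows only.

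Among the Jun genes the share of Jund in the family counts was 24.9% in the hip control and 13.1% in the hip library labelled TMX-injected, and 59.8% and 42.1% in the knee. The share of Jun was 57.5% and 66.5% for the hip and 11.9% and 21.9% for the knee. The ratio of Jun to Jund counts was 2.20 times that of the control in the hip (2.02 to 2.39) and 2.60 times in the knee (2.40 to 2.82), and 1.67 and 2.39 times when trend-corrected. Fos to Jund gave 4.15 times in the hip (3.71 to 4.65) and 3.68 times in the knee (3.21 to 4.24), and 3.22 and 3.79 times when trend-corrected. Hence Fos and Jun were higher relative to Jund in both joints, whichever the scaling and with or without the trend. Junb to Jund was higher too, at 2.19 times the control in the hip and 1.81 times in the knee. Jund had the lowest log2 ratio of the whole gene group in both pairs, by TMM and when trend-corrected. Any other member set over Jund is therefore higher, and these ratios show nothing particular to Fos and Jun. Jun to Junb was 1.00 times the control in the hip (0.924 to 1.09) and 1.44 times in the knee (1.32 to 1.57), and 0.765 and 1.32 times when trend-corrected. Summed Jun family levels were 188 and 265 CPM for the hip and 327 and 248 CPM for the knee.

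Egr1 encodes a zinc finger factor that growth factors and mechanical load induce through serum response factor. The gene (ENSMUSG00000038418) has 2 exons. It had 854 counts (22.2 CPM) in the hip control, 1757 (50.8 CPM) in the hip library labelled TMX-injected, 922 (26.9 CPM) in the knee control and 1767 (46.2 CPM) in the knee library labelled TMX-injected. The control libraries of both joints were low and the libraries labelled TMX-injected high. In the hip the log2 ratio was 1.24 (1.12 to 1.36) and was called, and the knee log2 ratio was 0.60 (0.48 to 0.72), a 1.51-fold difference, or 0.37 (0.26 to 0.49) when trend-corrected.

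Atf3 encodes a stress-induced factor of the ATF family, which can pair with Jun proteins and often represses. The gene (ENSMUSG00000026628) is on chromosome 1 from 190902493 to 190950241. Its counts were 612 (15.9 CPM) and 805 (23.3 CPM) in the hip control and the hip library labelled TMX-injected, and 169 (4.93 CPM) and 287 (7.51 CPM) in the knee. Atf3 was higher in both joints, with log2 ratios of 0.59 (0.44 to 0.75) in the hip and 0.42 (0.15 to 0.71) in the knee.

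Ier2 encodes a small nuclear protein of the immediate early response. The gene (ENSMUSG00000053560) is a single exon on chromosome 8 from 85387960 to 85389483. It had 694 (18 CPM) and 566 (16.4 CPM) counts in the hip control and the hip library labelled TMX-injected, and 3727 (109 CPM) and 4158 (109 CPM) in the knee. The hip log2 ratio was -0.10, with an interval of -0.26 to 0.07, and 0.63 (0.46 to 0.79) when trend-corrected, so no direction is given. The knee log2 ratio was -0.18 (-0.25 to -0.12), and -0.04 (-0.10 to 0.03) when trend-corrected.

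Nr4a1 encodes the orphan nuclear receptor Nur77, which acts without a known required ligand. The gene (ENSMUSG00000023034) is on chromosome 15 from 101151980 to 101172681, with 7 exons. It had 4837 counts (126 CPM) in the hip control, 5730 (166 CPM) in the hip library labelled TMX-injected, 1540 (44.9 CPM) in the knee control and 2054 (53.7 CPM) in the knee library labelled TMX-injected. The hip log2 ratio was 0.44 (0.39 to 0.50), and 0.96 (0.90 to 1.01) when trend-corrected. The knee log2 ratio was 0.08, with an interval of -0.02 to 0.17.

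**Figure D3:**
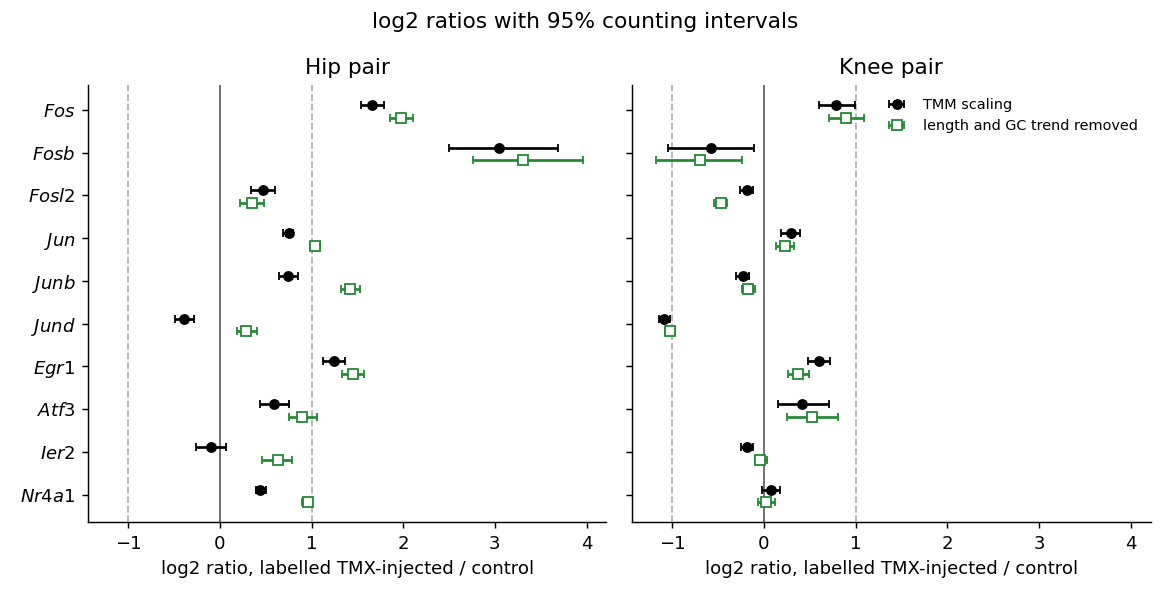
log2 ratio of each gene, library labelled TMX-injected over control, in the hip pair on the left and the knee pair on the right; bars are 95% counting intervals, black circles use TMM scaling, green squares are trend-corrected, and dashed lines mark 2-fold. In the hip Jund crosses 0, from -0.39 to 0.29, and in the knee Jund is at -1.09 and -1.02.

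The order of the genes by level was read from CPM per kb of transcript, since longer transcripts give more counts. In the hip control Nr4a1 was highest at 49.3 CPM per kb, followed by Jun at 33.9 and Jund at 28.0, and Fosb was lowest at 0.192. In the hip library labelled TMX-injected Nr4a1 (65.0 CPM per kb) and Jun (55.2) again led, and Fos was at 28.0 against 9.1 CPM per kb in the control. The knee order was another one. In the knee control Jund stood at 117 CPM per kb, Ier2 at 71.4 and Junb at 51.2, while Nr4a1 was at 17.6 and Jun at 12.3. In the knee library labelled TMX-injected Ier2 (71.4 CPM per kb) lay above Jund (62.7), and Fosb was again lowest at 0.498. Without replicates it cannot be said which neighbours in these orders differ beyond the spread between animals. Summed over the 10 genes the level was 412 and 616 CPM for the hip and 627 and 586 CPM for the knee.

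Set side by side, the interval lay above 0 in both pairs for 4 genes, Fos, Jun, Egr1 and Atf3, beside 18.1% of the 17594 genes measured in both joints. It lay below 0 in both pairs for Jund, beside 12.9%, although the trend-corrected hip interval of Jund was 0.19 to 0.40. For 3 genes, Fosb, Fosl2 and Junb, it lay above 0 in the hip and below 0 in the knee, beside 10.2%. The difference between the joints was not tested, since there is 1 library per condition, and the knee intervals of these 3 genes hold 0 by library size.

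**Figure D4:**
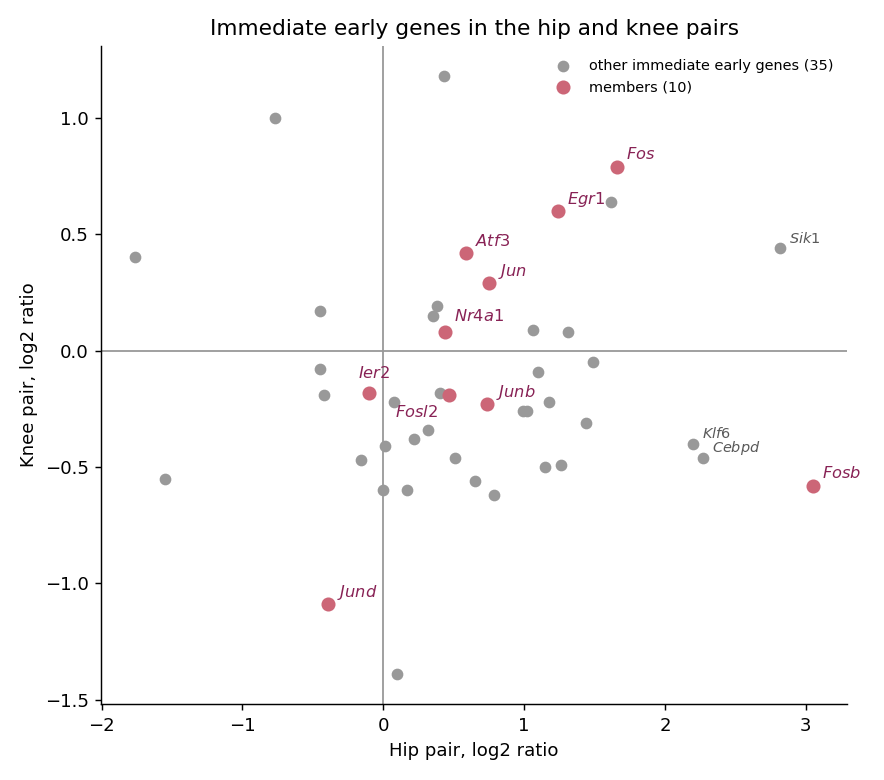
log2 ratio in the hip pair against that in the knee pair for the 10 genes (red, named) and 35 other immediate early genes (grey, 3 of them named), with lines at 0. Fos, Egr1, Atf3, Jun and, at 0.08 in the knee, Nr4a1 lie above 0 on both axes; Egr4 is left out because its hip counts were 34 and 0.

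Counts of calls in the lists that follow stand beside 20.2% of all genes called higher and 16.3% lower for the hip, and 9.00% and 6.81% for the knee. Of 36 other immediate early genes, a list that leaves out the 10, 13 were called higher and 3 lower in the hip, with a median log2 ratio of 0.41 (0.86 when trend-corrected), and 3 higher and 1 lower in the knee, with a median of -0.24, or -0.06 by library size. The knee interval lay above 0 for 8 of them, beside 31.9% of all genes, and below 0 for 21, beside 29.7%, and by library size for 13 and 15, beside 43.0% and 20.1%. Sik1, a salt-inducible kinase, had 324 and 1994 counts in the hip, a log2 ratio of 2.82 (2.65 to 2.99), and 0.44 (0.33 to 0.55) in the knee. Cebpd, an acute-phase transcription factor, was at 2.27 (2.19 to 2.35) in the hip and -0.46 (-0.51 to -0.41) in the knee. Klf6, a zinc finger factor, was at 2.20 (2.10 to 2.30) in the hip, or 1.32 when trend-corrected, and -0.40 (-0.45 to -0.35) in the knee. All 3 were called higher in the hip, and Cebpd and Klf6 lay below their control in the knee, as Fosb and Junb did.

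Of 12 further AP-1 family genes (Fosl1 and the Batf, Jdp2, Atf and Maf genes), 11 could be measured in the hip, where 2 were called higher and 1 lower, and 12 in the knee, where 0 were called higher and 1 lower. Fosl1, which encodes the Fos protein Fra-1, had 30 and 48 counts in the hip, a log2 ratio of 0.87 (0.19 to 1.58) or 1.38 when trend-corrected, and 91 and 30 in the knee, a log2 ratio of -1.92 (-2.59 to -1.33). Atf7, a Jun partner, was higher in both, at 1.03 (0.91 to 1.16) in the hip and 0.67 (0.53 to 0.81) in the knee. Its relative Atf2 was at 1.52 (1.33 to 1.71) in the hip but at 0.28 when trend-corrected, and at 0.30 (0.18 to 0.41) in the knee.

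Upstream of these genes, 3 of 9 serum response factor and TCF or CREB regulators were called higher in the hip and 0 lower, and 0 were called in the knee. They were Elk4, a TCF partner of serum response factor, at a log2 ratio of 1.69 in the hip and -0.33 in the knee, Creb1 at 1.72 and 0.16, and Atf1 at 1.43 and -0.07. The hip ratio of Creb1 was 0.20 when trend-corrected. The hip interval lay above 0 for 5 of the 9 and below 0 for 4, beside 37.3% and 33.7% of all genes. Srf, the gene of serum response factor itself, was among the lower ones, at -0.64 (-0.70 to -0.58). The hip median of this list was 0.63, and 0.08 when trend-corrected. Of 17 MAP kinase cascade genes, 3 were called higher in the hip and 2 in the knee, with 0 lower in either. Braf, a kinase of this cascade, was at a log2 ratio of 2.59 in the hip (1.34 when trend-corrected) and 0.47 in the knee, and Rps6ka3, a kinase that ERK activates, was at 2.42 (1.11 when trend-corrected) and 0.50. Of 11 feedback inhibitors of this cascade, 2 were called higher and 1 lower in the hip, and 0 higher and 1 lower in the knee. Dusp5, a phosphatase of nuclear ERK, was called lower in both as scaled by TMM, at -1.14 in the hip and -1.39 in the knee. Its hip counts were 59 and 23, and its trend-corrected hip value was -0.63, with an interval of -1.41 to 0.07. Dusp16 (1.57) and Spred1 (1.16, or 0.12 when trend-corrected) were higher in the hip.

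Among 13 genes known as AP-1 targets, matrix-degrading enzymes and cytokines among them, 7 were called lower and 0 higher in the knee, beside 6.81% and 9.00% of all genes, with a median log2 ratio of -1.43. The interval lay below 0 for 11, beside 29.7% of all genes. In the hip 12 could be measured, with 2 called higher, 4 lower and a median of 0.22, or -0.30 when trend-corrected. Spp1, a higher call there at 1.11, was at 0.64 when trend-corrected. Ptgs2, the inducible cyclooxygenase, had 269 and 37 counts in the knee, a log2 ratio of -3.18 (-3.74 to -2.70). Ccl2, a monocyte chemokine, was at -2.25 (-2.79 to -1.76) in the knee from 159 and 42 counts. Lif, a cytokine of the interleukin 6 family, was lower in both joints, at -2.48 (-3.38 to -1.75) in the hip and -1.72 (-2.12 to -1.34) in the knee. Most of these targets lay below their control in the knee library in which Fos, Jun, Egr1 and Atf3 lay above it. Osteoclasts express some of these targets, such as Mmp9 and Spp1, and osteoclast markers made up 0.244% and 0.101% of the knee counts, with 5 of 6 lower. Chondrocyte markers were lower for 10 of 12 in the knee, with a median log2 ratio of -1.65. The part of these cells in the values of the targets was not tested.

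The genes whose levels over the 4 libraries lay nearest the median profile of the 9 members with at least 100 counts in each library (all but Fosb) were sought among 9620 genes. Likeness was the Euclidean distance between log2 CPM values centred on their mean. The median profile coincides with that of Egr1 (distance 0.0), so the genes found are the neighbours of Egr1. The 5 nearest were Hspa12a (0.07), Lyve1 (0.07), Spice1 (0.11), Mtrex (0.12) and Ccdc157 (0.13). Lyve1, a hyaluronan receptor of lymphatic vessels, had 450, 953, 522 and 960 counts in the hip control, the hip library labelled TMX-injected, and the same order in the knee. Hspa12a had 107, 207, 112 and 217. Both were thus higher in the library labelled TMX-injected of both joints, as Egr1 was. The members themselves were not alike, since 5894 of the 9620 genes were nearer to this profile than the median member was.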

How the data were processed

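Poly-A RNA of hip and knee articular cartilage was analysed in 4 libraries, 1 per condition. The labels' extraction note names osteoblasts, the tissue labels articular cartilage. The authors deposited whole-number counts per gene without normalization. Per the submitters' processing notes the tools were FastQC 0.11.3 and STAR 2.0 with mm10, whereas the study's methods name GRCm39. The authors ran paired DESeq2. Annotation and strand setting are not given in the sources used here. The hip files end in HTSeq summary lines, 25.8% and 24.6% of the listed reads, which were left out.

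Identifiers were matched to GENCODE (91.8% of hip and 92.6% of knee identifiers had a symbol), with positions in GRCm39. Scaling used edgeR 4.0.16 (TMM within each pair, over all genes), with library size and DESeq2 1.42.0 size factors as alternatives, under R 4.3.3, and Python 3.11.15 with numpy 2.4.6, pandas 2.3.3, scipy 1.17.1 and matplotlib 3.10.9 served for the rest. For the trend correction, genes were binned by the length of their canonical transcript, then by its GC content (20 bins each), and bin medians were subtracted, 2 times over. A count of 3 was the floor, 0.0780 to 0.0876 CPM. Other alternatives were a count of 2 added, other count filters, a 1.5-fold call, TMM without cell type and mitochondrial genes, and TMM over filtered genes, the last chosen after seeing the data. The steps were tested on simulated counts.

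The 10 genes and the 8 pathway and 9 cell type lists were chosen with earlier results of these data known. Genes named were all 10 members and, per pathway list, at most 3 with the largest log2 ratio in size in either pair where the higher library held at least 50 counts. For likeness, the 5 nearest genes were named. Srf, Mmp9 and Spp1 are named in addition from their lists. With 1 library per condition, no test was made. A gene that this rule names is not reported here.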

Additional observations from a re-analysis of the deposited data

Results flagged for a closer look

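The following genes had log2 ratios of opposite sign in the hip and knee pairs, with counting intervals on either side of 0. The difference was not tested, because each condition holds 1 library. Fosb was at 3.05 in the hip and -0.58 in the knee. Fosl2 was at 0.47 and -0.19. Junb was at 0.74 and -0.23. These are values by TMM scaling, and by library size the knee intervals of all these genes hold 0.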

How the results depend on the processing

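No replicate could be left out and no replicate error given, since each condition holds 1 library. Of the 20 log2 ratios (10 genes in 2 joints), 2 changed sign on trend correction, both in the hip: Jund from -0.39 to 0.29, and Ier2, whose main interval held 0, from -0.10 to 0.63. This correction moved 11 ratios besides that of Jund beyond their counting interval, gave 5 hip genes called higher (beside 13.8% of all genes) instead of 3 (20.2%) and a hip median of 1.00 instead of 0.67. Scaling by library size moved 7, all in the knee, gave 0 knee genes called lower instead of 1 and a knee median of 0.13 instead of -0.05. DESeq2 size factors moved 2. TMM over filtered genes, TMM without cell type and mitochondrial genes, and a count of 2 added moved 0 of 20. At 1.5-fold 6 hip and 2 knee genes were called higher, beside 28.1% and 16.4% of all genes. Over all genes, requiring 10 counts in each library left 1435 lower calls in the hip instead of 3234, and 1202 higher and 811 lower in the knee instead of 1902 and 1440. At 1.5-fold the knee gave 3458 and 2891. A fit over both joints with joint as a block was not run, since the joints differ in Cre, age and control and are not replicates of 1 comparison. Fosb, with 28 counts in the hip control, had the widest hip interval.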

Other observations

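Of 10 heat shock genes, 3 were called lower and 0 higher in the knee, beside 6.81% and 9.00% of all genes. The lower calls were 2 when corrected for the trend over length and GC and 1 by library size, beside 5.51% and 4.96%. All 10 knee intervals lay below 0 as scaled by TMM, beside 29.7% of all genes, 9 when so corrected and 8 by library size. The median log2 ratio was -0.74. Hspa1b, an inducible chaperone, had 582 and 308 counts in the knee control and the knee library labelled TMX-injected, a log2 ratio of -1.26 (95% counting interval -1.46 to -1.06). Hspe1, a mitochondrial chaperonin, was at -1.10 (-1.15 to -1.04) in the knee and -0.41 in the hip, and at -0.73 and 0.02 after that correction. Hsp90aa1, a cytosolic chaperone, was at -0.83 in the knee and 1.06 in the hip, the latter at 0.41 after it.

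Of 10 integrated stress response genes, 2 were called higher and 0 lower in the hip, and 0 higher and 1 lower in the knee, beside 20.2% and 16.3% of all hip genes and 9.00% and 6.81% of all knee genes. Ddit4, an inhibitor of mTORC1 induced by stress and glucocorticoid, had 467 and 6726 counts in the hip, a log2 ratio of 4.04 (3.91 to 4.18), or 4.66 after that correction, and was at 0.58 (0.47 to 0.69) in the knee. Gdf15, a stress cytokine, held 5 and 19 counts in the hip pair and 159 and 74 in the knee pair, where its log2 ratio was -1.44. Chac1, which degrades glutathione, was at -0.67 in the hip, or -0.09 after that correction, and -0.96 in the knee.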
